A study of Mus musculus with 8 samples.

Results

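The genes described here are the inhibitors of cyclin-dependent kinases (CDK) and the pocket proteins that these kinases inactivate. They were listed by gene family and found by symbol in the table of raw counts, and all 10 were among its 49585 genes. The CIP/KIP inhibitors are Cdkn1a (p21), Cdkn1b (p27) and Cdkn1c (p57), the INK4 inhibitors are Cdkn2a (p16 and p19ARF), Cdkn2b (p15), Cdkn2c (p18) and Cdkn2d (p19), and the pocket proteins are Rb1 (pRB), Rbl1 (p107) and Rbl2 (p130). The question was whether any other inhibitor was higher where Cdkn1a was low.

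CDKs partnered with cyclins D and E drive cells from G1 into S phase by phosphorylating the pocket proteins, which otherwise hold E2F transcription factors and their target genes in check. INK4 proteins bind the cyclin D kinases Cdk4 and Cdk6, while CIP/KIP proteins bind assembled cyclin-CDK complexes, above all those with Cdk2. p53 activates Cdkn1a directly, and in the liver p21 restrains the entry of hepatocytes into the cell cycle after injury.

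RNA was sequenced from whole livers of 8 male mice that had received a high-fat, choline-deficient (HFCD) diet for 3 months from day 21 of age. LP245/+ livers (n = 3; label Alb-CreTG, Trp53wm-R245W/+) carried an allele that encodes wild-type p53 until Cre converts it to the missense mutant p53R245W. LPfl/+ livers (n = 2; Alb-CreTG, Trp53fl/+) had 1 floxed allele of Trp53 deleted by Cre. The control group LP+/+ (n = 3) was without Cre by its labels, which also give its livers an unrecombined allele, Trp53fl/+ in replicates 1 and 2 and Trp53wm-R245W/+ in replicate 3 (all Alb-Cre0). The study's results describe LP+/+ mice as Cre carriers with unaltered p53, while its methods allow controls either with or without Cre. The labels were followed. Alb-Cre acts in hepatocytes and bile duct cells only, so the RNA of all other liver cells came from cells with unaltered p53, and a change in Cdkn1a RNA per cell and a change in the number of cells that make it cannot be told apart. If the labels hold, carrying Cre and the change of Trp53 cannot be told apart in comparisons with LP+/+, whereas LP245/+ and LPfl/+ both carry Cre by either source. Libraries had between 26304526 and 31370714 counts. The labels' library numbers form 2 runs, called series here. The first held the LP245/+ livers and LP+/+ replicates 2 and 3, and the second held LP+/+ replicate 1 and both LPfl/+ livers. No series therefore held both altered genotypes.

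The short promoter windows searched differed in whether they held a p53 response element. The promoters of the 2 CIP/KIP genes that the results turn on are shown for that reason. Sequence outside these windows was not searched, so elements farther from a start site would be missed. Windows of 300 bases, from 250 before to 50 after each RefSeq start site (GRCm38.p6), were available for 8 of the 10 genes, 11 windows in all. They were searched on both strands for 2 joined copies of the p53 consensus decamer with at most 1 mismatch. The element lay in the window of the upstream start of Cdkn1a and in none of the other 10 windows, compared with 29 (0.0883%) of all 32851 windows. It spans chr17:29090928-29090947, from 51 to 32 bases before the start site, and is in capitals in the first sequence below. The best match had 5 mismatches at the downstream start of Cdkn1a and 3 at Cdkn1b. All 3 sequences are of the plus strand and each ends before its own start site, the second lying inside the span of Cdkn1a from the upstream start. They cover chr17:29090729-29090968, chr17:29093519-29093758 and chr6:134920151-134920400.
Cdkn1a upstream start: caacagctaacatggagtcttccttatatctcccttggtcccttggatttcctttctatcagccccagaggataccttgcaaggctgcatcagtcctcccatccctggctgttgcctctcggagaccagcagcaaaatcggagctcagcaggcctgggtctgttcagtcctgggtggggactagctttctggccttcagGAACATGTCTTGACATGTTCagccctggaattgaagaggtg
Cdkn1a downstream start: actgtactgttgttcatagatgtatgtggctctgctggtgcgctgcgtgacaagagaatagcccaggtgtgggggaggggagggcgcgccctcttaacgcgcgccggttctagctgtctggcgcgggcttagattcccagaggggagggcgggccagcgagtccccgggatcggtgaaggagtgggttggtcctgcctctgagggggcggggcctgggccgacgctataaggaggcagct
Cdkn1b: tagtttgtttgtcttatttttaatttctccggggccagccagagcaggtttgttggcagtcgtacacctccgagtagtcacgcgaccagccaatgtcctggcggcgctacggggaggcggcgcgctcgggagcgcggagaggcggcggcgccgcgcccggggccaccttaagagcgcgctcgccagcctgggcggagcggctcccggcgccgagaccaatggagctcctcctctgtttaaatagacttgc
One of the words TTTCCCGC, TTTCGCGC, TTTGCCGC or TTTGGCGC, spelled as sites for E2F and searched on both strands, occurred in 2.26% of all windows. Among the 8 genes these were the windows of Rbl1 (TTTCGCGC, 18 bases before the start) and of the upstream start of Cdkn2a (TTTCCCGC, 99 bases before the start). Matches are descriptions of sequence, and binding was not measured.

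Levels of different genes were compared per length, as TPM (counts divided by the length of the exons of each gene, then scaled to the same total in every library). Over the 8 livers Rbl2 had the highest mean level (12.4 TPM, range 11.2 to 13.3), followed by Cdkn1b (11.3 TPM, 9.36 to 12.8), and these ranges overlapped. Rb1 (4.23 TPM, 3.35 to 5.46) lay below both in every liver. Next came Cdkn2c (2.47 TPM), Cdkn1a (2.17 TPM), Cdkn2d (1.69 TPM), Rbl1 (1.55 TPM) and Cdkn1c (1.21 TPM), each overlapping its neighbours in this order. With the longest transcript as length, Rbl2 (14.7 to 17.2 TPM) lay above Cdkn1b (7.91 to 11 TPM) without overlap, and Cdkn1a (mean 3.14 TPM) stood before Cdkn2c (2.28 TPM). Cdkn2b (0.534 TPM, 0.300 to 0.798) was below the lowest value of Cdkn1c (0.818 TPM), and Cdkn2a (0.0694 TPM, at most 0.218) was below Cdkn2b in every liver. The RNA of this family in these livers was thus mostly that of p130 and p27, the members known for resting cells. Cdkn1a varied most among the 9 genes with enough counts for a test. Its coefficient of variation over the 8 livers was 74.9%, in counts divided by a size factor for depth rather than TPM. The other 8 had between 5.86% (Rbl2) and 32.4% (Cdkn2b).

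**Figure D1:**
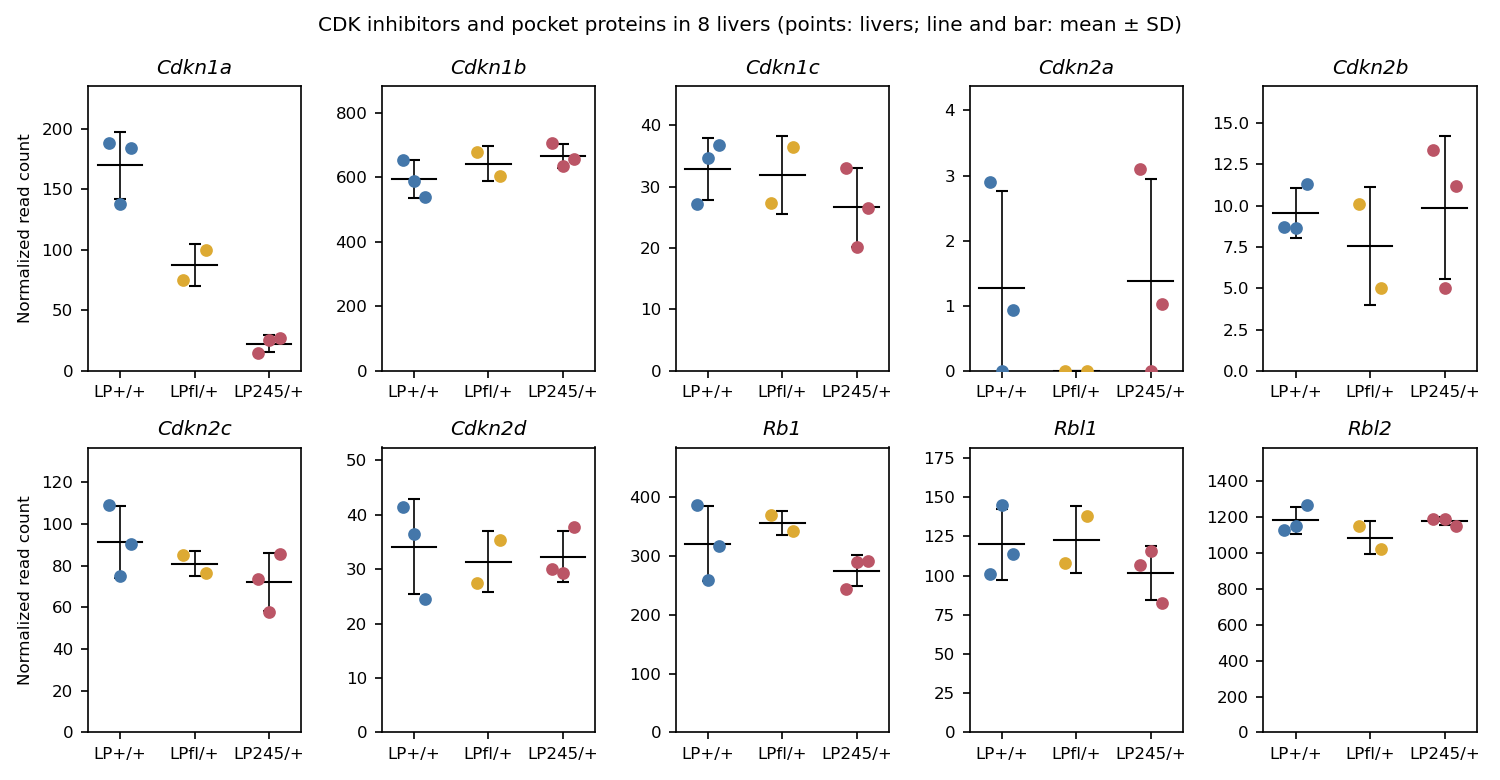
Normalized read counts (y axes, each from 0) of the 10 genes in LP+/+ (n = 3), LPfl/+ (n = 2) and LP245/+ (n = 3) livers; points are livers, lines and bars are means ± SD. Cdkn1a lies at 138 to 188, 75 to 100 and 14.5 to 27.5 with no overlap of the genotypes, whereas LP245/+ and LP+/+ livers overlap for every other gene.

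Cdkn1a (chromosome 17 of GRCm38, 29090976 to 29100727, plus strand), the p53 target that encodes p21, fell in LP245/+ livers to 0.133 of its level in LP+/+. Its normalized read counts (counts divided by a size factor for depth) were 188, 138 and 184 (LP+/+), 75 and 100 (LPfl/+) and 14.5, 25.3 and 27.5 (LP245/+). The 3 genotypes did not overlap, with LPfl/+ between the other two. LP245/+ against LP+/+ gave a log2 fold change of -2.91 (standard error 0.27, 0.133-fold, 95% interval 0.0882 to 0.202, adjusted p = 0.0155 by edgeR). Among 16496 genes tested, Cdkn1a was the only gene past the cutoff in this fit, that is, changed at least 2-fold with an adjusted p up to 0.05, so the background was 0.00606%. DESeq2 gave 10 genes, and edgeR gave 20 without the filter on low counts, 3 with the series as a covariate and 0 to 5 with a liver left out. The call was lost, with a value near the main one, without LP+/+ replicate 3 (-2.85, adjusted p = 0.103 by edgeR) and without LP245/+ replicate 2 (-3.00, adjusted p = 0.203). It was also lost with the replicate number as a block (-2.93, adjusted p = 0.0596 by edgeR), although these numbers did not pair the livers. Adjusted p-values here measure the spread between these livers, which the labels do not tie to litters.

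In LPfl/+ livers Cdkn1a had a log2 fold change of -0.95 compared with the same LP+/+ livers (standard error 0.27, 0.518-fold, 95% interval 0.341 to 0.786), which did not pass the cutoff (adjusted p = 0.697 by edgeR, unadjusted p = 0.00576). No gene passed in this fit (background 0%). DESeq2 gave 9 genes, and edgeR gave 14 without the filter on low counts, 3 with the series as a covariate, 59 without LP+/+ replicate 1 and 2 without LPfl/+ replicate 2. LP245/+ compared directly with LPfl/+ gave -1.96 (standard error 0.29, 0.258-fold, 95% interval 0.164 to 0.404), with an adjusted p of 0.321 by edgeR (unadjusted p = 5.8e-05), and again no gene passed in this fit (0%). Cdkn1a was among the 122 genes that edgeR gave without the filter on low counts and the 47 without LP+/+ replicate 1. DESeq2 gave 56 genes, Cdkn1a among them (-1.96, adjusted p = 2.1e-05). The edgeR fit of these 2 genotypes alone gave 51 genes, and Cdkn1a also passed there (-1.95, adjusted p = 0.0470 by edgeR). Means taken inside a series gave a log2 ratio of -2.84 for LP245/+ against LP+/+ replicates 2 and 3, and -1.11 for LPfl/+ against LP+/+ replicate 1, which has no replicate.

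No other inhibitor or pocket protein passed the cutoff in any of the 3 comparisons, and none had an unadjusted p below 0.05. For LP245/+ compared with LP+/+, 3 of the other 8 genes tested had a log2 fold change above 0 and 5 below, with a median of -0.14 and a range of -0.33 to 0.18, against a median of 0.00 over all genes tested. Across all genes, 3.55% were higher and 2.38% lower at an unadjusted p below 0.05. For LPfl/+ against LP+/+ the same 8 genes had a median of -0.07 and ranged from -0.32 to 0.16, where 4.22% of all genes were higher and 2.67% lower at that p. In LP245/+ compared with LPfl/+ their median was -0.06 and their range -0.37 to 0.38, where 4.07% of all genes were higher and 4.44% lower. The tenth gene, Cdkn2a, did not pass the filter on low counts.

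**Figure D2:**
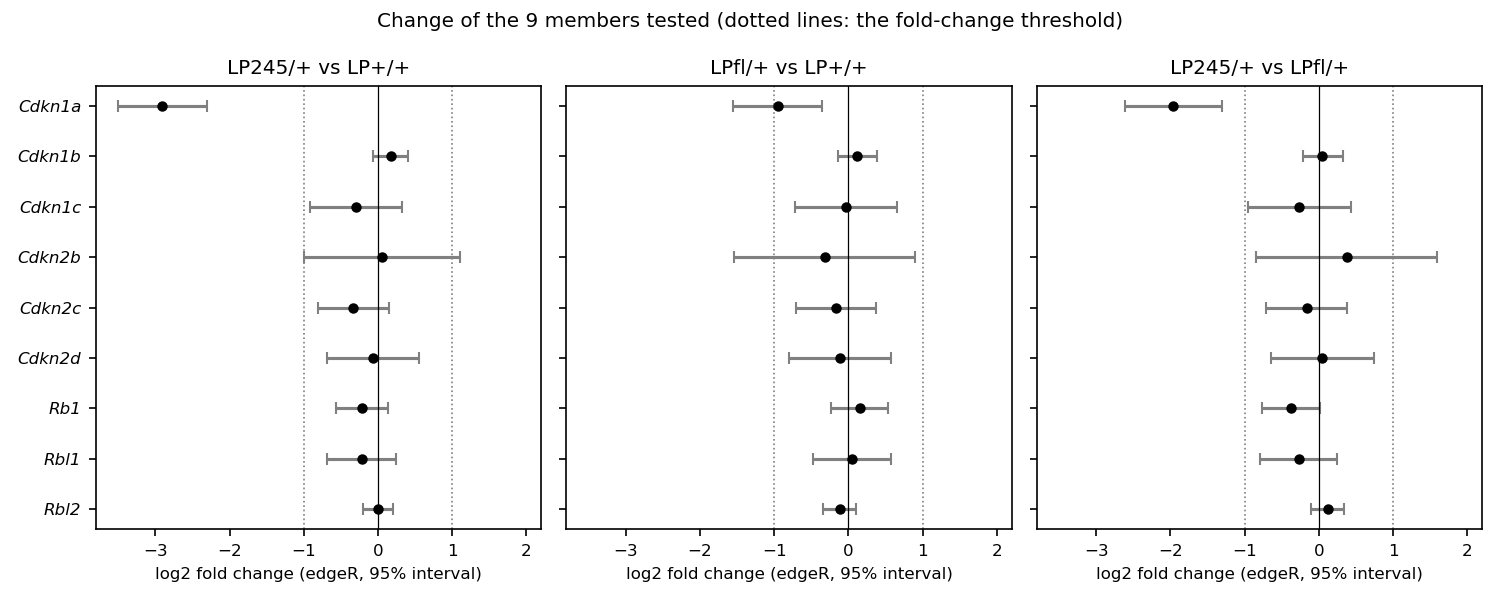
Log2 fold change (x axis, edgeR) with its 95% interval for the 9 genes tested in the 3 comparisons; dotted lines mark a log2 fold change of 1 either way. Cdkn1a lies at -2.91, -0.95 and -1.96, and the intervals of all other genes include 0.

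Among the CIP/KIP genes, Cdkn1b (chromosome 6, 134920401 to 134925513, plus strand) encodes p27, which holds resting cells out of the cycle and is controlled largely by degradation of the protein. Its normalized read counts were 655, 589 and 538 (LP+/+), 680 and 604 (LPfl/+) and 706, 634 and 658 (LP245/+). The lowest LP245/+ and LPfl/+ livers lay within the range of LP+/+. LP245/+ against LP+/+ gave a log2 fold change of 0.18 (standard error 0.10, 1.13-fold, 95% interval 0.961 to 1.33, adjusted p = 0.837 by edgeR). It was 0.12 in LPfl/+ compared with LP+/+ (95% interval of the fold 0.908 to 1.30) and 0.05 between LP245/+ and LPfl/+ (0.867 to 1.24). Within a series the log2 ratios of means were 0.24 for LP245/+ and -0.03 for LPfl/+. Cdkn1b was therefore estimated with a narrow interval and was not shown to differ.

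Cdkn1c (chromosome 7, 143458339 to 143461050, minus strand) encodes p57, an imprinted inhibitor best known from development. It had 27.1, 34.6 and 36.7 normalized read counts (LP+/+), 27.4 and 36.4 (LPfl/+) and 33.1, 20.2 and 26.5 (LP245/+). All genotypes overlapped. LP245/+ against LP+/+ gave a log2 fold change of -0.29 (standard error 0.28, 95% interval of the fold 0.530 to 1.26, adjusted p = 0.889 by edgeR), so a rise by more than 1.26-fold lay outside the interval.

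Of the INK4 genes, Cdkn2c (chromosome 4, 109660876 to 109667189, minus strand) was the most abundant, and its product p18 inhibits Cdk4 and Cdk6. It had 109, 74.9 and 90.3 normalized read counts (LP+/+), 85.1 and 76.7 (LPfl/+) and 73.4, 57.6 and 85.5 (LP245/+), which overlapped. Its log2 fold change of -0.33 between LP245/+ and LP+/+ (standard error 0.22, 95% interval of the fold 0.569 to 1.11, adjusted p = 0.846 by edgeR) was the lowest of any other member in that comparison. Cdkn2d (chromosome 9, 21288410 to 21291407, minus strand), which encodes the INK4 protein p19, had between 24.5 and 41.5 normalized read counts (LP+/+), 27.4 and 35.3 (LPfl/+) and between 29.3 and 37.7 (LP245/+). Its log2 fold change was -0.07 (standard error 0.27, 95% interval of the fold 0.623 to 1.46, adjusted p = 0.980 by edgeR). All 3 LP245/+ livers lay inside the range of LP+/+ for Cdkn2d and 1 of 3 did for Cdkn2c, the others lying below it.

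The neighbours Cdkn2b and Cdkn2a, on chromosome 4 at 89306299 to 89311039 and 89274471 to 89294653 (minus strand), are the inhibitors known for induction by TGF-beta and in senescence. Cdkn2b had raw counts of 9, 9 and 12 (LP+/+), 10 and 5 (LPfl/+) and 13, 5 and 11 (LP245/+). These counts bound its change only loosely, with a log2 fold change of 0.06 between LP245/+ and LP+/+ (standard error 0.47, 95% interval of the fold 0.504 to 2.15, adjusted p = 0.990 by edgeR). Cdkn2a had raw counts of 3, 0 and 1 (LP+/+), 0 and 0 (LPfl/+) and 3, 0 and 1 (LP245/+). LP+/+ and LP245/+ livers therefore held the same 3 counts, and in LPfl/+ a count of 0 allows up to 3 counts, or 0.108 and 0.114 CPM (counts scaled to an equal library total) in replicates 1 and 2 (counting error only). The gene yields both p16 and p19ARF from different first exons, which the counts do not separate, and no change of it was detectable at this depth (adjusted p = 1, 0.895 and 0.897 by edgeR without the filter on low counts, in LP245/+ against LP+/+, LPfl/+ against LP+/+ and LP245/+ against LPfl/+).

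Among the pocket proteins, Rbl2 (chromosome 8, 91070057 to 91123844, plus strand) encodes p130, which forms the repressor complex of resting cells. It had 1130, 1150 and 1270 normalized read counts (LP+/+), 1150 and 1020 (LPfl/+) and 1190, 1190 and 1150 (LP245/+). LP245/+ against LP+/+ gave a log2 fold change of 0.00 (standard error 0.09, 95% interval of the fold 0.873 to 1.15, adjusted p = 0.999 by edgeR), the narrowest interval of the family. Rbl1 (chromosome 2, 157145893 to 157204534, minus strand), which encodes p107 and is itself an E2F target, had 101, 145 and 114 normalized read counts (LP+/+), 108 and 138 (LPfl/+) and 107, 116 and 82.5 (LP245/+), and the genotypes overlapped. Its log2 fold change was -0.22 (standard error 0.21, 95% interval of the fold 0.619 to 1.19, adjusted p = 0.885 by edgeR).

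Rb1 (chromosome 14, 73183673 to 73325822, minus strand), which encodes the retinoblastoma protein, had 387, 259 and 316 normalized read counts (LP+/+), 370 and 342 (LPfl/+) and 244, 289 and 291 (LP245/+). LP245/+ livers were all below LPfl/+ livers but overlapped LP+/+. The log2 fold change was -0.21 in LP245/+ compared with LP+/+ (standard error 0.16, adjusted p = 0.851 by edgeR) and -0.37 compared with LPfl/+ (standard error 0.17, 95% interval of the fold 0.591 to 1.01, adjusted p = 0.588, unadjusted p = 0.0572). These genotypes share no series of library numbers, and with the series as a covariate, linked only through LP+/+ livers, the latter value was 0.06. Rbl2 was the other gene besides Cdkn1a and Rb1 without overlap between LP245/+ and LPfl/+ (0.12, higher), the closest livers both rounding to 1150. Such separation is common with so few livers. It held for 12.1% of all genes in the higher and 13.3% in the lower direction between LP245/+ and LPfl/+, for 11.9% and 13.2% between LPfl/+ and LP+/+, and for 6.03% and 5.79% between LP245/+ and LP+/+. In the last 2 comparisons Cdkn1a was the only member without overlap.

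Added per length, the 6 other inhibitors (Cdkn1b, Cdkn1c and the 4 INK4 genes) came to 19.7, 16.6 and 15.4 TPM (LP+/+), 17.9 and 17.3 TPM (LPfl/+) and 19.0, 15.9 and 16.4 TPM (LP245/+). The LP+/+ mean was 17.2 ± 2.25 TPM (SD, n = 3), the LPfl/+ mean 17.6 ± 0.438 TPM (SD, n = 2) and the LP245/+ mean 17.1 ± 1.66 TPM (SD, n = 3), differences smaller than the SD of LP+/+ and of LP245/+ livers. The level of Cdkn1a itself was 3.92 ± 0.679, 2.05 ± 0.457 and 0.497 ± 0.140 TPM. In LP245/+ compared with LP+/+ the difference was thus -3.42 TPM for Cdkn1a and -0.149 TPM for the sum of the others. Scaled by TMM (edgeR's scaling for composition) per kilobase, the sign of the second difference turned, with sums of 7.39 ± 0.710 in LP+/+ and 7.61 ± 0.682 in LP245/+ (CPM per kilobase), again within the spread, against 1.68 ± 0.275 and 0.223 ± 0.0686 for Cdkn1a.

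The makeup of inhibitor RNA differed accordingly. Of the summed inhibitor TPM, Cdkn1a supplied 18.5% ± 2.47 in LP+/+, 10.4% ± 2.32 in LPfl/+ and 2.89% ± 0.998 in LP245/+ livers (SD, n as above). Cdkn1b supplied 50.6% ± 2.64, 59.5% ± 3.75 and 66.2% ± 3.39, a share that is higher when Cdkn1a is lower even at a constant level of Cdkn1b. These shares depend on the length used, and with the longest transcript Cdkn1a supplied 27.3% ± 3.24, 16.2% ± 3.33 and 4.71% ± 1.61. In LP+/+ means, Cdkn1a (3.92 TPM) was second to Cdkn1b (10.7 TPM) among the inhibitors, and in LP245/+ it was near Cdkn2b (0.497 and 0.564 TPM). The 3 pocket proteins summed to 18.8 ± 0.851, 18.5 ± 0.536 and 17.4 ± 1.42 TPM in LP+/+, LPfl/+ and LP245/+ livers.

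**Figure D3:**
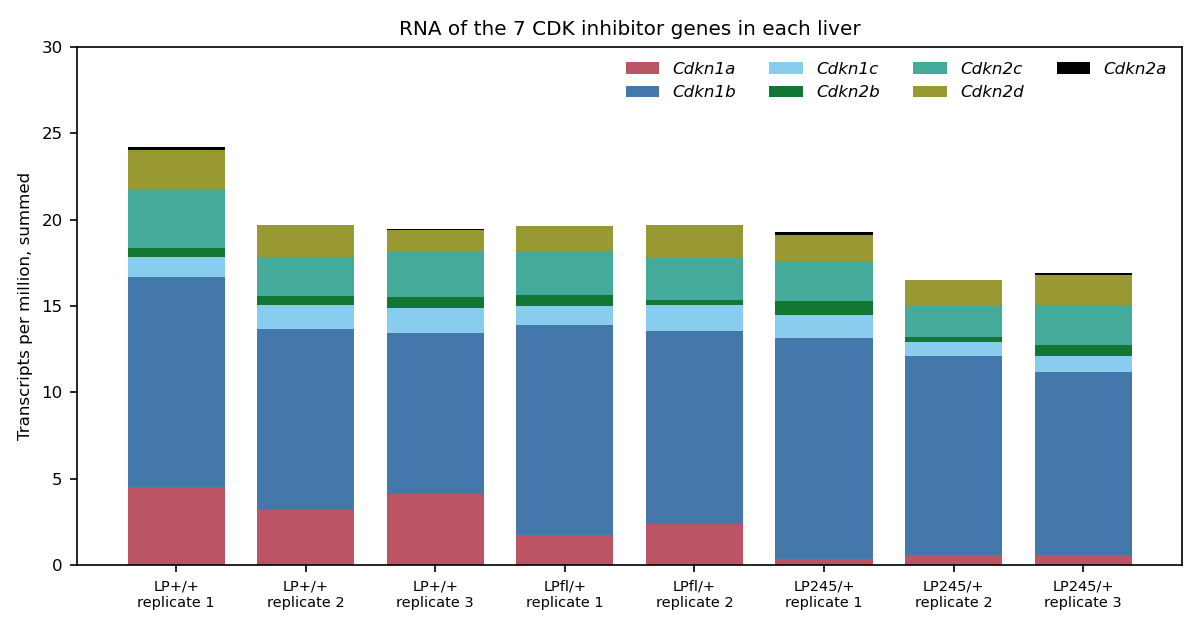
Summed level of the 7 CDK inhibitor genes in each liver (y axis, TPM from 0), stacked by gene with Cdkn1a at the base. The Cdkn1a segment spans 3.17 to 4.49 TPM in LP+/+ and 0.336 to 0.587 TPM in LP245/+ livers, while the segments above it sum to 15.4 to 19.7 and 15.9 to 19.0 TPM.

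To set the intervals against the size of that loss, the fold that each gene alone would need to match the fall of Cdkn1a in RNA per length was computed from the LP+/+ means. In LP245/+ livers, 1.46 TMM-scaled CPM per kilobase of Cdkn1a were lost. Cdkn2c would have to be 2.22-fold, Cdkn2d 2.91-fold, Cdkn1c 3.58-fold and Cdkn2b 7.05-fold its LP+/+ level, and the upper ends of their 95% intervals were 1.11, 1.46, 1.26 and 2.15. For these 4 genes a match lay outside the interval. Cdkn1b, the most abundant, would need 1.32-fold, just inside its interval, which reached 1.33. For Cdkn1b the answer turned with the length used for Cdkn1a, since per kilobase of the longest transcript 1.54-fold was needed, outside the interval. For the 0.812 CPM per kilobase by which Cdkn1a was lower in LPfl/+ livers, the fold needed was 1.18 for Cdkn1b, within its interval (up to 1.30, the value needed by the longest transcript), and from 1.68 (Cdkn2c) to 4.36 (Cdkn2b) for Cdkn1c, Cdkn2b, Cdkn2c and Cdkn2d, above their upper ends of 1.29 to 1.87. Cdkn2a would need 39.0-fold in LP245/+ and 22.1-fold in LPfl/+ livers, and was left out of this fit by the filter on low counts. These values concern RNA, and protein was not measured.

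Trp53, which encodes p53, had 226, 258 and 202 normalized read counts (LP+/+), 127 and 178 (LPfl/+) and 316, 294 and 193 (LP245/+). It was lowest in LPfl/+, with no overlap of the LPfl/+ livers with either other genotype, and the log2 fold change of LPfl/+ compared with LP+/+ was -0.58 (standard error 0.24, adjusted p = 0.718 by edgeR). LP245/+ livers gave 0.24 compared with LP+/+ (standard error 0.21, adjusted p = 0.883). The counts do not separate mutant from wild-type transcripts. Among 21 other p53 targets, all tested, none passed the cutoff in LP245/+ compared with LP+/+, but 7 were lower and 0 higher at an unadjusted p below 0.05, where 2.38% of all genes were lower and 3.55% higher, and their median log2 fold change was -0.32. The largest differences were in Eda2r (-2.46, standard error 0.51, adjusted p = 0.795 by edgeR), Tnfrsf10b (-1.30, standard error 0.51, adjusted p = 0.806), both receptors of the TNF receptor family, and Phlda3 (-0.91, standard error 0.39, adjusted p = 0.831), an inhibitor of Akt. In LP245/+ livers these 3 genes had raw counts of only 6 to 8, 3 to 9 and 6 to 10. The smallest adjusted p of the 21 was 0.569 by edgeR, for a gene other than these 3. For LPfl/+ against LP+/+, 3 of these 21 were lower and 0 higher at that p, where 2.67% of all genes were lower and 4.22% higher, with a median of -0.25. For LP245/+ against LPfl/+, 4 were lower and 0 higher, where 4.44% of all genes were lower and 4.07% higher, with a median of -0.04.

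No gene of the 6 lists of related genes passed the cutoff in any of the 3 comparisons, where 0.00606%, 0% and 0% of all genes did, so these counts of 0 say nothing particular about the lists. Of the G1 cyclins and their kinases, 12 of 13 genes were tested in LP245/+ compared with LP+/+, with 0 past the cutoff, 0 at an unadjusted p below 0.05 and a median log2 fold change of 0.07. The largest differences were Ccne2 (0.30, standard error 0.32), Ccne1 (0.28, standard error 0.39) and Ccnd1 (0.23, standard error 0.27), which encode cyclins E2, E1 and D1. Other brakes on CDKs gave 0 of 7 tested past the cutoff and a median of -0.12. Wee1, the kinase that blocks Cdk1 and Cdk2 by phosphorylation, was the only brake with an unadjusted p below 0.05 (0.63, standard error 0.27, adjusted p = 0.831 by edgeR), 1 of 7 where 3.55% of all genes were higher and 2.38% lower at that p. Its normalized read counts were 84.1 ± 26.7 in LP+/+, 75.3 ± 20.6 in LPfl/+ and 129 ± 23.6 in LP245/+ livers (SD), and LP+/+ and LP245/+ overlapped. The Cdk9 inhibitor Hexim2 (-0.34, standard error 0.27) and the phosphatase gene Cdkn3 (-0.21, standard error 0.62) followed.

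Downstream of the pocket proteins, 0 of 16 tested E2F and MuvB partners passed, with a median of -0.04, and E2f2 was the only gene of these 16 at an unadjusted p below 0.05, where 2.38% of all genes were lower (-0.65, standard error 0.28, adjusted p = 0.831 by edgeR), ahead of the cell cycle transcription factors Foxm1 (-0.41, standard error 0.42) and E2f7 (-0.40, standard error 0.39). Genes that pocket proteins repress, which replicate DNA or run mitosis, gave 0 of 25 tested past the cutoff, 10 above and 15 below 0 and a median of -0.05. Between LPfl/+ and LP+/+, 4 of these 25 were above and 21 below 0, with a median of -0.15, and 2 were lower and 1 higher at an unadjusted p below 0.05. Between LP245/+ and LPfl/+, 19 were above and 6 below 0, with a median of 0.10 and 1 in each direction at that p. The shares of all genes at that p between LP245/+ and LPfl/+ were 4.07% higher and 4.44% lower. Of all genes, 49.4%, 50.2% and 49.2% lay below 0 in these 3 comparisons. Cdc20 (-0.90, standard error 0.44), Gins2 (0.70, standard error 0.59) and Aurkb (-0.57, standard error 0.44) differed most between LP245/+ and LP+/+. These genes had few counts or a wide spread. Normalized read counts in LP+/+ and LP245/+ were 49.9 ± 30.7 and 26.5 ± 1.15 for Cdc20 (SD). They were 9.21 ± 2.78 and 14.9 ± 10.5 for Gins2 and 15.3 ± 6.11 and 10.2 ± 1.67 for Aurkb. Mki67, the proliferation marker Ki-67, was the only one of the 25 at that p there, against the same 2.38%, and is named after its values were seen (-0.48, standard error 0.13, adjusted p = 0.795 by edgeR). Its normalized read counts were 253 ± 20.2 in LP+/+, 152 ± 18.2 in LPfl/+ and 180 ± 7.18 in LP245/+ livers (SD), so its mean was lowest in LPfl/+. Of 19 regulators of the inhibitors, all tested, 0 passed and the median was 0.03. Myc, which represses Cdkn1a and Cdkn2b, had -0.60 (standard error 0.61), the transcription factor Cebpb 0.44 (standard error 0.30) and Skp2, which marks p27 for degradation, 0.31 (standard error 0.17, adjusted p = 0.831 by edgeR). In LPfl/+ compared with LP+/+ the medians were -0.03 for the G1 cyclins and their kinases (2 of 12 lower at an unadjusted p below 0.05), -0.05 for other brakes (0 of 7), -0.07 for E2F and MuvB partners (1 of 16 higher) and 0.02 for the regulators (0 of 19), where 2.67% of all genes were lower and 4.22% higher at that p.

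**Figure D4:**
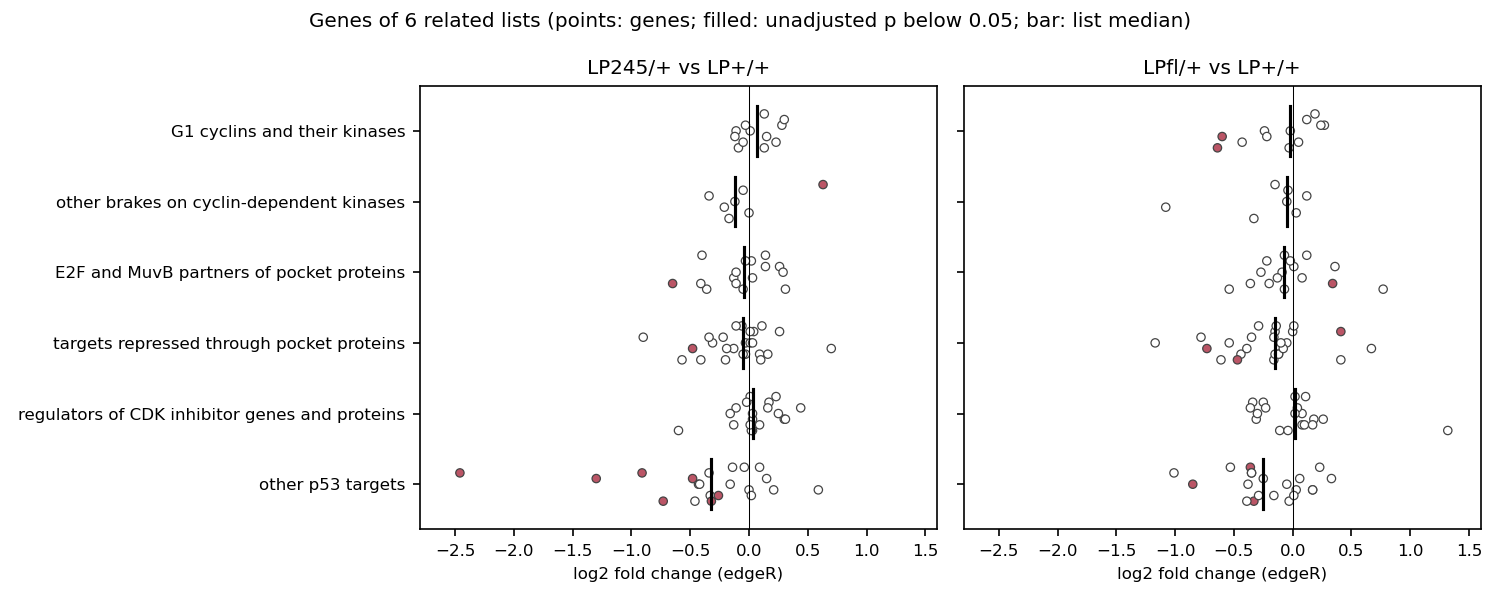
Log2 fold change (x axis, edgeR) of the genes tested in 6 related lists (rows) in LP245/+ and in LPfl/+ compared with the same LP+/+ livers; points are genes, filled at an unadjusted p below 0.05, and bars are list medians. In the left panel the medians lie between -0.12 and 0.07 except for the other p53 targets at -0.32.

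Genes whose log2 CPM followed those of Cdkn1a most closely over the 8 livers, among 11638 with a mean of at least 50 normalized counts, were Eif4a3 (Pearson r = 0.98), Tubg1 (0.95), Aen (0.95), Nelfcd (0.94) and Leo1 (0.94). Of these, Aen is also on the list of other p53 targets. The genes most opposite were Slf2 (-0.95), Gm37978 (-0.94), Shq1 (-0.93), Uggt2 (-0.93) and Gm37321 (-0.93), and none of them is an inhibitor. Cdkn1b and Cdkn2c were the only other inhibitors that reached this mean, so Cdkn1c, Cdkn2a, Cdkn2b and Cdkn2d could not appear in either ranking. With no such minimum, of the 8 other members tested Cdkn1b had the lowest r with Cdkn1a (-0.67), at position 797 of 16495 genes counted from the most opposite, and Cdkn2c the highest (0.60). These are descriptions over 8 livers that share 3 genotypes and 2 series.

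Hepatocyte markers were all 6 detected in every liver and led by Alb, with a summed level in CPM of 97700, 125000 and 141000 (LP+/+), 105000 and 96700 (LPfl/+) and 99500, 114000 and 115000 (LP245/+). The genotypes overlapped in this sum, and 0 of 6 passed the cutoff in any comparison. Macrophage markers, 6 of 6 detected and led by Clec4f, summed to CPM values of 265, 320 and 284 (LP+/+), 377 and 278 (LPfl/+) and 232, 283 and 268 (LP245/+). All 6 had a log2 fold change below 0 in LP245/+ compared with LP+/+, between -0.22 and -0.11. Of all genes, 49.4% lay below 0 in that comparison. Neutrophil markers were near 0, with Ly6g at 0 in all livers, and summed to 1.56, 1.68 and 1.29 CPM (LP+/+), 2.40 and 2.61 (LPfl/+) and 1.65, 1.40 and 2.0 (LP245/+), led by S100a9. Both LPfl/+ livers were above all others in this sum. Mean sums in LP+/+, LPfl/+ and LP245/+ were 31.8, 33.9 and 29.0 CPM for 6 bile duct markers (led by Spp1), 552, 501 and 557 for 8 stellate cell and fibroblast markers (Reln), 426, 344 and 435 for 7 endothelial markers (Stab2) and 21.1, 24.9 and 19.6 for 7 lymphocyte markers (Ptprc). At an unadjusted p below 0.05, 2 of 7 endothelial markers were lower and 0 higher in LPfl/+ than in LP+/+ livers. Of the 2 neutrophil markers tested, 1 was higher and 0 lower there, where 2.67% of all genes were lower and 4.22% higher. In LP245/+ compared with LPfl/+ livers, 2 of 6 macrophage markers were lower and 0 higher at that p. Of the 2 neutrophil markers tested, 1 was lower and 0 higher. In the other direction, 1 of 6 hepatocyte, 1 of 8 stellate cell and fibroblast and 1 of 7 endothelial markers were higher and 0 lower. The shares of all genes in that comparison were 4.44% lower and 4.07% higher. The part of these cell types in the values of the inhibitors was not tested.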

How the data were processed

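Strand-specific total RNA libraries from flash-frozen liver were sequenced by the authors, who aligned reads to GRCm38 with STAR and deposited raw counts per gene summarized with STAR on a GENCODE annotation. The GENCODE release and the strand counted are not given in the sources used here. All 8 columns were matched to the labels, which name separate animals' livers, and no 2 livers agreed within sampling noise. Of 49585 Ensembl IDs, 49326 matched a symbol of GENCODE M21 without the version. Genotypes were compared with edgeR 4.0.16 in R 4.3.3 (TMM, filterByExpr by genotype with a minimum count of 10, quasi-likelihood test, all 8 livers in 1 fit, Benjamini-Hochberg over 16496 genes), at the study's cutoff (log2 fold change of 1 or more in size, adjusted p up to 0.05). The study used DESeq2, tried here as an alternative (1.42.0). Comparisons with LP+/+ share its livers. Normalized counts were divided by DESeq2 size factors, and TPM used exon-union lengths. Standard errors are the log2 fold change divided by the root of F. The pipeline was tested on simulated data.

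Exons of Rb1 overlap Rcbtb2 and Lpar6, those of Rbl2 overlap Aktip and Gm45464, those of Cdkn1c overlap Gm44732 and those of Cdkn1a overlap AC167363.2, all on the other strand, so their counts are uncertain if strand was not used.

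The genes named besides the 10 members and Trp53 were those past the cutoff and the 3 that differed most between LP245/+ and LP+/+ in each pathway list, and the 5 most and least correlated with Cdkn1a. Mki67, Ccng1 and Rps27l fall outside this rule and were named after their values were seen. The most abundant marker of each cell type is named as well, as is Ly6g. Members and lists were chosen with earlier results of these data known. Alternatives were other scaling, filters, samples, a replicate block, a term for the library series, DESeq2, no fold-change threshold, and leaving out each liver.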

Additional observations from a re-analysis of the deposited data

How the results depend on the processing

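The alternatives gave 381 results for the members other than Cdkn1a, counted by gene, comparison and setting. They reuse the same livers and are not independent. Of these results 0 passed the cutoff, with a smallest adjusted p of 0.405 by edgeR, and 37 turned the sign of a log2 fold change. For Cdkn1a in LP245/+ compared with LP+/+ the log2 fold change was between -3.09 and -2.68 with each liver left out, and the call was lost without LP+/+ replicate 3 or LP245/+ replicate 2, leaving between 0 and 1 member past the cutoff. Over all alternatives its adjusted p ranged from 9.3e-18 (DESeq2) to 0.203 (edgeR), and in LP245/+ compared with LPfl/+ from 2.1e-05 (DESeq2) to 0.521 (edgeR). The replicate numbers did not pair the livers (correlations of deviations between same-numbered livers from -0.08 to 0.03), and with a replicate block the value was -2.93 (adjusted p = 0.0596 by edgeR), with 0 members and 0 genes past the cutoff. In LP245/+ compared with LPfl/+, Cdkn1a was the 1 member past the cutoff with DESeq2 (-1.96), without a filter on low counts (-1.95, adjusted p = 7.0e-04 by edgeR), with only these genotypes (-1.95) and, of the fits without 1 liver (-2.15 to -1.72; 0 to 1 members), without LP+/+ replicate 1 (-1.96, adjusted p = 0.0265).

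Genes past the cutoff in LP245/+ compared with LP+/+ were 1 in the edgeR fit reported, 10 with DESeq2, 20 without a filter, 3 with the series of library numbers as covariate and 0 to 5 with each liver left out. In LPfl/+ compared with LP+/+ they were 0, 9, 14, 3 and 0 to 59, the highest without LP+/+ replicate 1, and in LP245/+ compared with LPfl/+ 0, 56, 122, 10 and 0 to 47, again highest without that liver, with 51 when only these genotypes were fitted. The summed level of the other inhibitors was 7.39, 7.50 and 7.61 in LP+/+, LPfl/+ and LP245/+ as TMM-scaled CPM per kilobase, another unit, and 15.1, 15.4 and 15 TPM by the longest transcript. With that length, an alternative chosen after seeing the data for the next values, Cdkn1a supplied 27.3%, 16.2% and 4.71% of inhibitor TPM in place of 18.5%, 10.4% and 2.89%, and the fold of Cdkn1b that would match the fall of Cdkn1a was 1.54 in LP245/+ and 1.30 in LPfl/+ in place of 1.32 and 1.18. With each liver left out, the summed level of the other inhibitors by exon-union length was 16 to 18.2, 17.3 to 17.9 and 16.1 to 17.7 TPM.

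Signs turned in LP245/+ compared with LP+/+ for Cdkn2b (0.00), Cdkn2d (0.10) and Rbl2 (-0.03) with the series as covariate and for Rbl2 with DESeq2 or only these genotypes (-0.01). In LPfl/+ compared with LP+/+ they turned with the series for Cdkn1b (-0.02), Cdkn1c (0.24) and Rb1 (-0.11), with library totals for Cdkn1c (0.04) and with the replicate block for Cdkn1c (0.01) and Rbl1 (-0.04). In LP245/+ compared with LPfl/+ they turned with library totals for Cdkn1b (-0.01) and Cdkn2d (-0.03) and with the series for Cdkn2c (0.24) and Rb1 (0.06). Leaving out 1 liver turned them in LP245/+ compared with LP+/+ for Cdkn2b (-0.23 to 0.37), Cdkn2d (-0.27 to 0.10) and Rbl2 (-0.03 to 0.05), in LPfl/+ compared with LP+/+ for Cdkn1c (-0.27 to 0.14), Cdkn2b (-0.91 to 0.08), Cdkn2d (-0.32 to 0.05) and Rbl1 (-0.15 to 0.20), and in LP245/+ compared with LPfl/+ for Cdkn1b (-0.02 to 0.14), Cdkn2b (-0.03 to 0.95) and Cdkn2d (-0.13 to 0.25). The causes were not tested. Counts of 5 to 13 per liver for Cdkn2b and 0 to 3 for Cdkn2a limit what could be seen for these genes.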

Other observations

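Of the 29 gene symbols whose promoter window held a p53 response element as defined for Cdkn1a, 18 were in the count table and 9 were tested. In LP245/+ compared with LP+/+, 8 of these 9 had a log2 fold change below 0, compared with 49.4% of all genes, and the median was -0.25. Ccng1 and Cdkn1a, the gene whose element set the search, were lower at an unadjusted p below 0.05 and 0 were higher, where 2.38% of all genes were lower and 3.55% higher. Between LPfl/+ and LP+/+, 6 of the 9 were below 0 (50.2% of all genes), with a median of -0.19. Cdkn1a alone was lower at that p and 0 were higher, where 2.67% of all genes were lower and 4.22% higher. Between LP245/+ and LPfl/+, 6 were below 0 (49.2% of all genes), with a median of -0.24 and 3 lower at that p, where 4.44% of all genes were lower. Named after their values were seen, Ccng1, which encodes cyclin G1, had 2030, 1690 and 1450 mean normalized read counts in LP+/+, LPfl/+ and LP245/+ livers (-0.48, standard error 0.12, adjusted p = 0.795 by edgeR), and Rps27l, a ribosomal protein paralogue, had 2670, 2680 and 2700 (0.02, standard error 0.14, adjusted p = 0.988). The 9 genes ranged from -2.91 to 0.02 between LP245/+ and LP+/+.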
